A study of Mus musculus with 9 samples.

Results

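Tight junctions are the belts of membrane proteins that close the clefts between neighbouring cells, and 9 genes of these belts were followed here in the blood vessels of the mouse brain. They are Cldn5, Ocln, Lsr, Marveld2, Tjp1, Jam2, F11r, Cgn and Cgnl1, picked by name, out of 18194 genes that the array measures by a probe set naming 1 gene. The arrays carry 21 probe sets that name 1 of the 9 genes alone. Where several name the same gene, the brightest on average stands for it and the others served as a check. Of the 9 genes 8 passed the filter on low values, which asked for 3 or more arrays at 4 or above, and Cgn did not.

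Mouse brain gave 9 samples, each on an array of its own, which form 3 groups of 3. Microvascular fragments, which are isolated pieces of small vessels, came from NMRI embryos at embryonic day 18.5. Embryos of the same strain and age gave the brain tissue left without these fragments, called rest of brain here. The third group were fragments from brains of mice aged 1 year on a mixed C57/SV129 background, 2 male and 1 female by their labels, while the sex of the embryos is not stated. The labels name no transgene and no treatment, and do not say whether tissue of several animals was pooled. Rest of brain replicate 3 carries another embryonic day in its description than in its title and was kept in its group. Embryonic and adult RNA were extracted with different kits of one maker, so that age, strain and kit cannot be told apart between the fragments of both ages. Replicates are labelled as biological, and every mean ± SD below is over n = 3 arrays.

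In brain endothelium the claudins seal the cleft, with claudin-5 as the main one, and occludin and the immunoglobulin-like JAM proteins accompany them along the line of contact. Where the corners of several cells meet, the angulin LSR marks the spot and brings tricellulin, the product of Marveld2, to it. On the inner side of the membrane the scaffold ZO-1, the product of Tjp1, and the coiled-coil proteins cingulin and paracingulin, from Cgn and Cgnl1, link these proteins to the cell's actin and microtubules.

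Ocln and Marveld2, whose products share the MARVEL type of membrane domain, are neighbours on the same strand of chromosome 13, with 0 protein-coding genes listed between them. The promoter windows of these neighbours, of Lsr, of Cldn5 and of F11r, which encodes JAM-A, are shown because these 5 genes differed by more than 6 on the log2 scale between embryonic vessels and the rest of the brain. The windows are from RefSeq on GRCm38.p6 and run from 250 bases before to 50 bases after a start site. They lie on the plus strand at chr16:18776597-18776896 for Cldn5 and at chr1:171437311-171437610 for F11r, and on the minus strand at chr13:100552669-100552968 for Ocln, at chr13:100616922-100617221 for Marveld2 and at chr7:30973420-30973719 for Lsr. Capitals mark the letters CCGGAA, an ETS core, and CACCC, a core bound by Kruppel-like factors, on either strand (TTCCGG and GGGTG when read on the other one).
Cldn5: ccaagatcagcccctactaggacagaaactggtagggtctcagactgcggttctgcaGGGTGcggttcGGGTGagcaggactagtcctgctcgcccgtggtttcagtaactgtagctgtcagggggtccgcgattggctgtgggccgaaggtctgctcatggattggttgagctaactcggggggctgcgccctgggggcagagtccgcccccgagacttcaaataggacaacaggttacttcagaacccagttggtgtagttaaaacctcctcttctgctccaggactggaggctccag
Ocln: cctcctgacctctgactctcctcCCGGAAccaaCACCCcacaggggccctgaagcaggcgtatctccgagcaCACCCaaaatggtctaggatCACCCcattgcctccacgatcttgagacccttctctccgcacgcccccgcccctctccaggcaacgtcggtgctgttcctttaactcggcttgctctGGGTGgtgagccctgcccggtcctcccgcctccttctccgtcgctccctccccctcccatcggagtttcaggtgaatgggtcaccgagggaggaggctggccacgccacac
Marveld2: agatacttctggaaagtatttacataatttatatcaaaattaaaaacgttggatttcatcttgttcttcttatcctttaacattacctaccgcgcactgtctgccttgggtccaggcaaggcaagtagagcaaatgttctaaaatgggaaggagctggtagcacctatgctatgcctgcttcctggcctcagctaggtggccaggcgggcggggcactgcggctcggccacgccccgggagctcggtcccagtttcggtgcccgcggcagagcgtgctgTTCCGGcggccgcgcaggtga
Lsr: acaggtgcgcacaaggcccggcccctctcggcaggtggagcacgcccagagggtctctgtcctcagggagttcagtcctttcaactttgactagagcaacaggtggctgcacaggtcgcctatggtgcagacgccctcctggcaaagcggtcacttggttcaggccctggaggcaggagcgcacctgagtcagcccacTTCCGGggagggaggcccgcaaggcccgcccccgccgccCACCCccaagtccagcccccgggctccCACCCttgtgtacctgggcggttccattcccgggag
F11r: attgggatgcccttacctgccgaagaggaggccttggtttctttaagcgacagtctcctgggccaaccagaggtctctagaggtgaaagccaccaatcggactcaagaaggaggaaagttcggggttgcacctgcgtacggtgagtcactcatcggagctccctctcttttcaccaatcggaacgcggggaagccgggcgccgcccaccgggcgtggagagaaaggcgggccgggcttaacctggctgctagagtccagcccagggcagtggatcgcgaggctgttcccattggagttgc
The ETS core occurred once each in the windows of Ocln, Marveld2 and Lsr, and in 0 of the other windows, that is in 3 of 8 member windows, beside 15.2% of 27025 promoters of the same length. The F11r window held neither core. CACCC was found in 6 of 8, beside 56.8% of all promoters. A SOX core, ACAAT, and a forkhead core, TGTTTAC, were in 0 of 8, beside 31.5% and 3.52% of all promoters. Windows matched 8 of the 9 genes, all but Jam2, and where a gene had several windows the one farthest upstream was used. A match is a run of letters in a window of 300 bases and was not tested for binding.

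Levels are given on the authors' log2 scale, made with GCRMA, which corrects and normalizes arrays of short probes, and a step of 1 is a doubling. A value under 4 was treated as background. Arrays of a group had Pearson's r of 0.978 to 0.993 with each other over 12009 tested genes (genes are no independent replicates), and 47.4% to 48.1% of probe sets reached 4 on each array. All 10 endothelial markers were higher in embryonic fragments than in rest of brain, with a median log2 difference of 7.42, and their summed level (log2 of the sum of linear values) was 16.54 to 16.75 in embryonic fragments, 8.62 to 9.07 in rest of brain and 16.53 to 16.72 in adult fragments. In rest of brain 3 of the 10 lay under 4 on every array. Other cells came along with the fragments. Of 8 microglia and macrophage markers 8 were higher in embryonic fragments than in rest of brain (summed level 15.44 to 16.81 against 13.10 to 13.33), as were 7 of 7 tested pericyte markers (15.89 to 16.20 against 12.97 to 13.64), whereas 7 of 7 tested neuronal markers were lower (10.22 to 11.02 against 15.45 to 15.83). Their part in the results on junction genes was not tested.

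In the embryo all 8 tested genes were higher in fragments than in rest of brain, and no array of one group overlapped the other. The genes were chosen with earlier results of these data known, so this count is no test of the set. Of all 12009 genes 66.1% were called in this comparison, 28.9% higher and 37.2% lower, and 76.7% showed no overlap of the arrays, so a lack of overlap alone is common here. The median log2 difference of the 8 genes was 6.44, beside -0.10 for all tested genes. The sizes split the genes. Cldn5, Ocln, Lsr, Marveld2 and F11r differed by more than 6 on the log2 scale, Cgnl1 by 4.44, and Tjp1 and Jam2 by 2.49 and 1.17. In bulk tissue, fewer cells of a type and less RNA per cell cannot be told apart. The threshold was an adjusted p of 0.05 (limma, 2-sided, Benjamini-Hochberg over all 12009 genes), and the errors given with differences are standard errors of that fit.

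**Figure D1:**
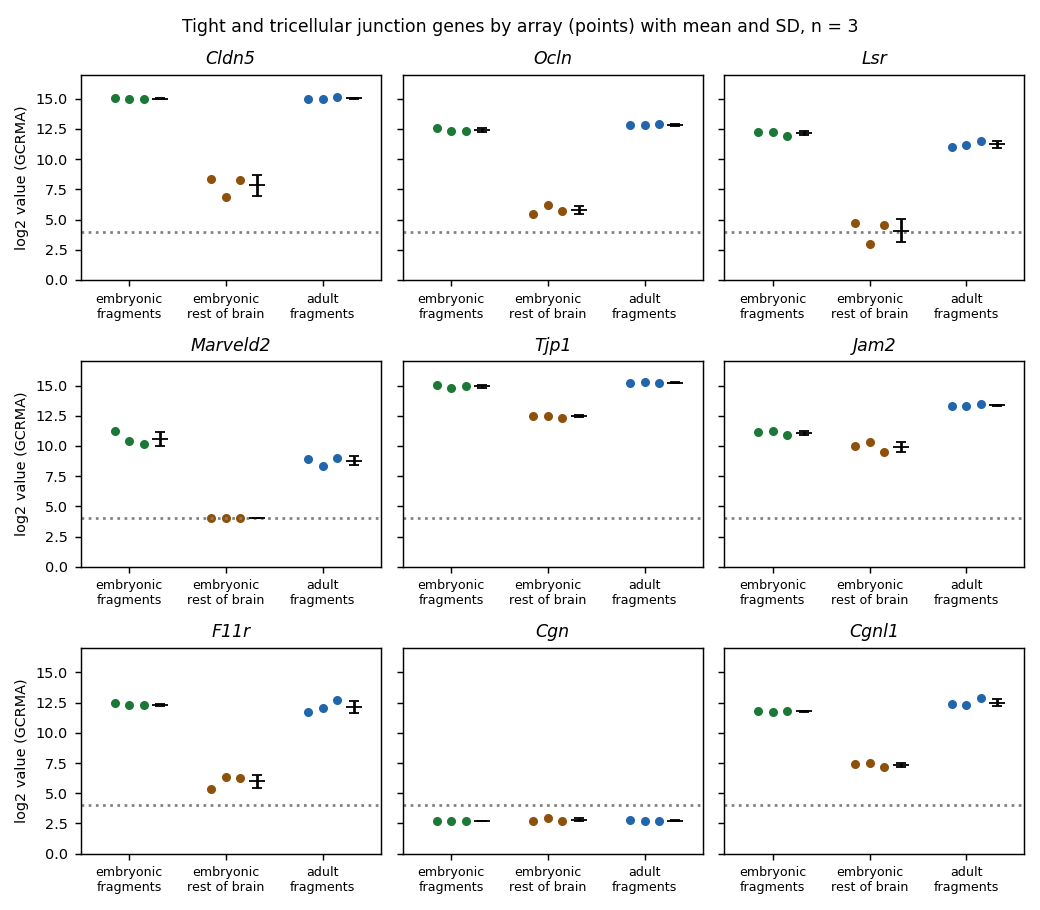
Log2 GCRMA values of the 9 junction genes (1 panel each) on every array of the 3 groups, with the group mean and SD (n = 3) beside the points and a dotted line at the background value of 4. All genes but Cgn, which stays under 4, are higher in both fragment groups than in rest of brain, with narrow gaps for Jam2 and Tjp1 in the embryo.

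Claudin-5 was at 15.05, 14.94 and 15.01 on the embryonic fragment arrays (replicates 1 to 3), at 8.39, 6.85 and 8.25 in rest of brain, and at 15.01, 14.97 and 15.10 in adult fragments. Both fragment groups thus stood far above rest of brain, and they overlapped each other. The embryonic difference was 7.17 ± 0.35, a 144-fold higher level in fragments (limma adjusted p = 2.07e-07). Between the ages the difference was 0.02 (95% interval -0.78 to 0.83, adjusted p = 0.975). The width of that interval comes from the shared spread of the fit, in which Cldn5 had an SD of 0.85 in rest of brain against 0.06 and 0.07 in the fragments, and with the fragment arrays fitted alone the difference was 0.02 ± 0.08. The highest value in the whole table was 16.79, so Cldn5 lay near the upper end of the scale in the fragments.

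The immunoglobulin-like adhesion proteins went apart. JAM-A, the product of F11r, was at 12.44, 12.26 and 12.28 in embryonic fragments, at 5.35, 6.37 and 6.24 in rest of brain, and at 11.73, 12.08 and 12.69 in adult fragments. It was 81.3-fold higher in embryonic fragments (6.35 ± 0.31, adjusted p = 1.95e-07), and the ages overlapped, with a difference of -0.16 (95% interval -0.86 to 0.54, adjusted p = 0.696). Without adult fragments replicate 1 this difference was 0.06, on the other side of 0. The other probe set of F11r did not pass the filter, with group means of 2.61 to 2.63, so it shows neither difference. JAM-B, the product of Jam2, was at 11.13, 11.24 and 10.91 in embryonic fragments and already at 9.99, 10.30 and 9.47 in rest of brain, but at 13.29, 13.32 and 13.44 in adult fragments. By this probe set it differed by 1.17 ± 0.20 in the embryo (2.25-fold, adjusted p = 7.79e-04) and rose between the ages (2.26 ± 0.20, 4.79-fold, adjusted p = 2.45e-05). All 3 adult arrays were above all 3 embryonic ones.

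The 5 probe sets that name Jam2 did not move alike, and the sizes of both its differences rest on the brightest of them. In a fit of all filtered probe sets, the next brightest over the 9 arrays rose by 0.44 ± 0.14 between the ages (adjusted p = 0.0288) and differed by 2.71 ± 0.14 between embryonic fragments and rest of brain (adjusted p = 4.23e-07). In the embryonic comparison 3 of the 5 were called, and the others differed by 0.81 (adjusted p = 0.281) and by 0.02 (adjusted p = 0.891, under 4 in both groups). The latter, a dim one, rose by 1.73 ± 0.12 between the ages, from 2.67 ± 0.02, under 4 on every embryonic array, to 4.40 ± 0.21. Another had a difference of 0.28 (adjusted p = 0.503), after 2.37 in the embryo (adjusted p = 2.06e-04). The fifth went the other way, at -1.23 (adjusted p = 0.122), with adult arrays spread from 6.96 to 9.69. Jam2 was thus called higher in adult fragments by 3 of its 5 probe sets and lower by 0. Which transcripts or ends of transcripts these probe sets read is not given in the sources used here.

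**Figure D2:**
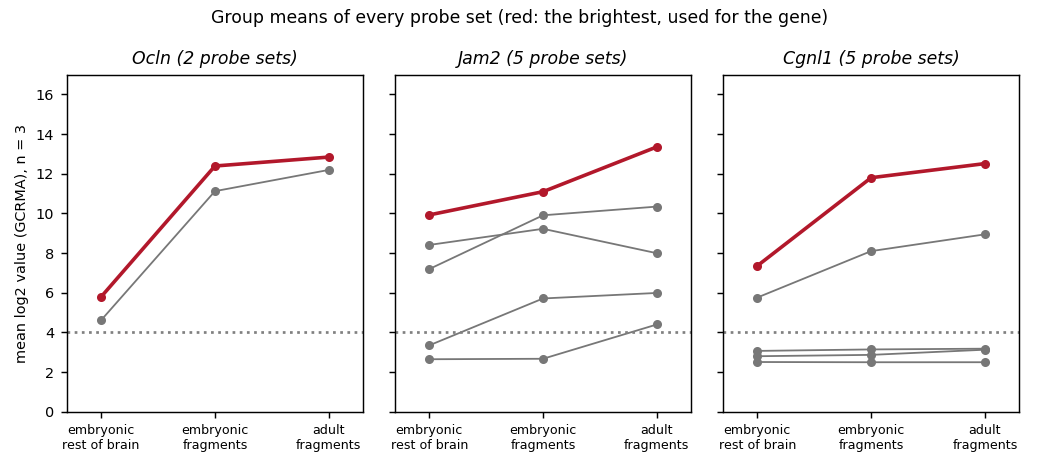
Mean log2 GCRMA value (n = 3 arrays a group) of every probe set that names Ocln, Jam2 or Cgnl1 alone, in rest of brain, embryonic fragments and adult fragments, with the probe set used for the gene in red and a dotted line at the background value of 4. Both Ocln lines rise from group to group, the 5 Jam2 lines fan out between the ages, and 3 of 5 Cgnl1 lines stay under 4.

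Occludin was at 12.58, 12.29 and 12.29 in embryonic fragments, at 5.48, 6.18 and 5.72 in rest of brain, and at 12.78, 12.83 and 12.90 in adult fragments. Each adult array lay above each embryonic one, by a small margin. The gene was 96.7-fold higher in embryonic fragments than in rest of brain (6.60 ± 0.18, adjusted p = 6.12e-09). Between the ages it had a difference of 0.45 (95% interval 0.04 to 0.86), which did not pass over all genes (adjusted p = 0.0604). It passed at the same size with the fragments fitted alone (adjusted p = 0.0196), and without rest of brain replicate 1 (adjusted p = 0.0399), rest of brain replicate 2 (0.0196) or embryonic fragments replicate 1 (0.0489, difference 0.55). In 14 of 23 recomputations it still did not pass (limma adjusted p up to 0.153). Among these was the fit of the fragments alone with the replicate number as a block (0.0587). The other probe set of Ocln had a larger difference, 1.07 ± 0.21 (adjusted p = 0.00247), and was 6.51 ± 0.21 higher in embryonic fragments than in rest of brain.

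Of the tricellular genes Marveld2 fell between the ages, and Lsr had a difference of the same sign that did not pass. Tricellulin (Marveld2) was at 11.20, 10.42 and 10.13 in embryonic fragments, at 4.06, 4.04 and 4.04 in rest of brain, just above background, and at 8.95, 8.34 and 9.01 in adult fragments. Its 3 groups were fully apart, with adult fragments in between. It was higher in embryonic fragments than in rest of brain by 6.54 ± 0.28 (adjusted p = 8.33e-08), with rest of brain at the edge of background, so that no fold is given. The gene fell by 1.82 between the ages (SE 0.28, 3.53-fold, adjusted p = 5.80e-04). That fall passed in each of 22 recomputations, with values from -2.05 to -1.51. A single probe set names Marveld2, so all of these recomputations used it and no other one could be set beside it.

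Lsr was at 12.27, 12.27 and 11.94 in embryonic fragments, at 4.69, 2.97 and 4.51 in rest of brain, and at 10.99, 11.13 and 11.53 in adult fragments. No array of embryonic fragments was as low as an adult one. With 8.10 ± 0.41 it had the largest embryonic difference of the 8 genes (274-fold, adjusted p = 2.47e-07, rest of brain below background on 1 array, so that the size leans on values at background). Its difference of -0.94 between the ages (95% interval -1.87 to -0.01) did not pass (adjusted p = 0.0797). The SD was 0.95 in rest of brain and 0.19 and 0.28 in the fragments, and with the fragments fitted alone the same difference passed (SE 0.18, adjusted p = 0.00792). It passed without rest of brain replicate 2 as well (adjusted p = 0.00293). In 15 of 21 recomputations it still did not pass (limma adjusted p up to 0.189). The other probe set of Lsr stayed under 4 throughout, with group means of 2.19 to 2.22.

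ZO-1 was bright in all groups. Tjp1 was at 15.07, 14.79 and 14.94 in embryonic fragments, at 12.49, 12.49 and 12.35 in rest of brain, and at 15.23, 15.26 and 15.21 in adult fragments. Each fragment array lay above each one of rest of brain, and the embryonic difference was 2.49 ± 0.11 (5.62-fold, adjusted p = 9.10e-08). Between the ages the gene was called higher by a small step of 0.30 ± 0.11 (1.23-fold, adjusted p = 0.0400). This call was lost in 11 of 21 recomputations (adjusted p = 0.0502 to 0.177). Leaving out 1 array ended it for rest of brain replicates 1 and 2 (adjusted p = 0.0553 and 0.0542), embryonic fragments replicates 2 and 3 (0.139 and 0.0879) and adult fragments replicates 1, 2 and 3 (0.0770, 0.0836 and 0.0517). Tjp1 is measured by 1 probe set, whose identifier marks probes shared between transcripts.

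Of the cingulins only paracingulin was measured above background. Cgnl1 was at 11.84, 11.77 and 11.78 in embryonic fragments, at 7.42, 7.50 and 7.14 in rest of brain, and at 12.38, 12.30 and 12.84 in adult fragments. The groups did not overlap, and adult fragments were highest. It was 21.8-fold higher in embryonic fragments than in rest of brain (4.44 ± 0.16, adjusted p = 3.35e-08) and rose by 0.71 ± 0.16 between the ages (1.64-fold, adjusted p = 0.00536). A dimmer probe set differed by 2.34 ± 0.46 in the embryo (adjusted p = 0.00195) and by 0.85 between the ages (adjusted p = 0.154), and the other 3 stayed under 4 on average in every group. Cgn was at 2.71 to 2.71 in embryonic fragments, 2.74 to 2.93 in rest of brain and 2.71 to 2.80 in adult fragments, and its other probe set had group means of 2.45 to 2.48. Both are under 4 on every array, so no fold is given and the gene was not tested. Whether these probe sets can detect cingulin RNA was not tested here.

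Between the ages the 8 genes took different courses. Jam2, Cgnl1 and Tjp1 were higher in adult fragments, Marveld2 was lower, and Cldn5, Ocln, Lsr and F11r were not called. These 4 calls stand beside a background of 57.1% of all tested genes called in either direction (27.4% higher and 29.7% lower), and 6 of 8 genes without overlap beside 62.6%, so the number of changes is not particular to the junction genes. Their median difference was 0.16, beside -0.02 for all genes. The endothelial markers changed likewise in both directions, with 3 of 10 higher, 3 lower and a median of 0.17. Smooth muscle markers moved with age, 5 of 6 higher and 1 lower, with summed levels of 12.39 to 12.94 in embryonic and 15.51 to 15.65 in adult fragments, and their part in these calls was not tested. Of 7 tested neuronal markers 4 were lower and 1 was higher in adult fragments, with a median difference of -2.09. Their summed level was 10.22 to 11.02 in embryonic and 9.80 to 10.44 in adult fragments. The part of carried neural tissue in falls of junction genes was not tested either. When every array was centred on the mean of the 10 endothelial markers, Marveld2 (-1.82, adjusted p = 1.48e-04), Jam2 (2.26, adjusted p = 6.79e-05) and Cgnl1 (0.71, adjusted p = 0.0126) kept their calls. Lsr gained one (-0.94, adjusted p = 0.0331) and Tjp1 lost it (adjusted p = 0.177). Centring hardly moved the age differences themselves, with a median over all genes of -0.016 before and after. It changed calls through their standard errors and does not test the sizes.

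**Figure D3:**
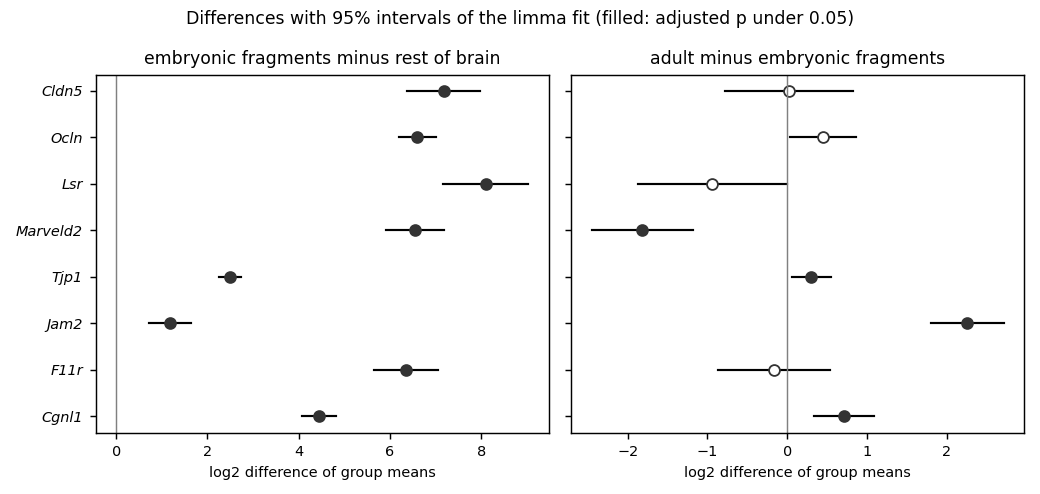
Log2 differences of group means with 95% intervals of the limma fit for the 8 tested genes, for embryonic fragments minus rest of brain and for adult minus embryonic fragments, with filled points for an adjusted p under 0.05. In the embryo every interval lies above 0, with differences from 1.17 for Jam2 to 8.10 for Lsr, and between the ages they run from -1.82 for Marveld2 to 2.26 for Jam2.

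Adult fragments against embryonic rest of brain share arrays with both other comparisons and differ in age, strain and extraction kit too, so their values are given only side by side. All 8 genes were higher and without overlap, beside a background of 76% of tested genes called (33.1% higher, 42.9% lower) and 79.9% without overlap. Ocln (7.05 ± 0.18) and Cldn5 (7.20 ± 0.35) had differences near 7 here, Marveld2 had 4.72 ± 0.28, and Jam2 reached 3.43 ± 0.20.

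Other junction genes were called in both directions in embryonic fragments against rest of brain. Over all tested genes 28.9% were higher and 37.2% lower there, and 27.4% and 29.7% between the ages. The part of the other cells of rest of brain in the lower genes was not tested. Of 22 claudins other than Cldn5, 19 were on the array, and 13 of these did not pass the filter. Among the 6 tested, 5 were lower and 1 was higher in embryonic fragments. Cldn11, the claudin of myelin sheaths, fell by 2.65 (5.53 ± 0.19 against 8.19 ± 0.32, adjusted p = 5.64e-06). Cldn1 fell by 1.76 (adjusted p = 0.0459) with fragment arrays from 4.82 to 7.73. Without embryonic fragments replicate 1 the difference was -0.83 (adjusted p = 0.0200). The call was lost without any 1 of the rest of brain or adult arrays (adjusted p = 0.0569 to 0.107). It was also lost with only the 2 groups fitted (adjusted p = 0.0832), and with the replicate number as a block in that fit (0.0709). Cldn9 was higher, by 1.10 ± 0.23 (5.61 ± 0.19 against 4.51 ± 0.22, adjusted p = 0.00237).

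In adult against embryonic fragments 4 of these 6 claudins were higher and 0 lower. Cldn2, a pore-forming claudin of leaky epithelia such as the choroid plexus, rose by 4.74 ± 0.47 (9.92 ± 0.16 against 5.18 ± 1.02, under 4 on 1 embryonic array, adjusted p = 4.55e-05). Cldn1 rose by 2.65 ± 0.68 (adjusted p = 0.00921), and by 1.72 without embryonic fragments replicate 1 (adjusted p = 7.88e-04). Choroid plexus and ependymal markers moved with them. Of 7 such markers 6 were higher in adult fragments and 0 lower, with a median difference of 2.62. Their summed level was 15.71 to 16.23 in embryonic fragments, 16.19 to 16.29 in rest of brain and 16.85 to 16.92 in adult fragments. That sum is mostly Ttr, near the upper end of the scale (means 15.99, 16.17 and 16.75 in the same order), and says little about the other markers. Within the embryonic fragments Folr1 ranged from 6.01 to 8.89 and Cldn2 from 3.99 to 5.78. Kl was under 4 on every embryonic array and at 9.26 ± 0.09 in adult fragments, Kcnj13 rose by 4.50 ± 0.51, and Foxj1 was under 4 on every fragment array of both ages. The epithelial genes Cdh1 and Krt19 were under 4 on every fragment array of both ages too, while Krt8 rose by 2.47 ± 0.46. The part of choroid plexus in the levels of Cldn1 and Cldn2 was not tested.

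**Figure D4:**
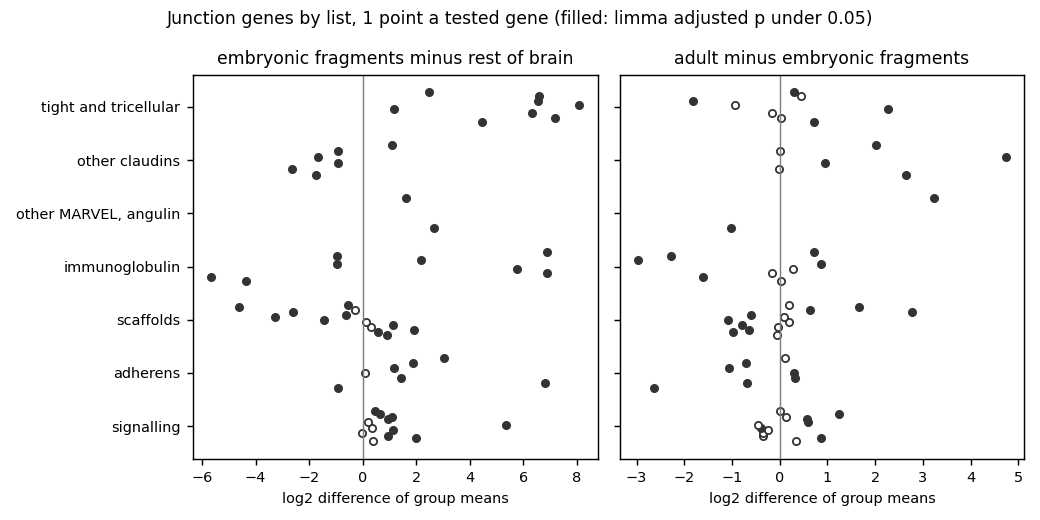
Log2 differences of group means for the tested genes of the tight and tricellular set and of 6 other junction lists, 1 point a gene, for embryonic fragments minus rest of brain and for adult minus embryonic fragments, with filled points for a limma adjusted p under 0.05. In the embryo the tight and tricellular set lies wholly above 0 and the other claudins mostly below it, while between the ages all lists but the other claudins hold called genes on both sides of 0.

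Of 4 relatives of tricellulin and LSR, Marveld1 and Ildr2 were tested and both were called higher in embryonic fragments. Ildr2, an angulin like Lsr, was higher by 2.67 ± 0.15 (13.57 ± 0.18 against 10.90 ± 0.16, adjusted p = 4.40e-07) and fell by 1.03 between the ages (SE 0.15, adjusted p = 3.99e-04). Another probe set of Ildr2 fell further (adjusted p = 1.25e-05). Marveld1 was higher by 1.63 ± 0.37 in the embryo (adjusted p = 0.00385), a call lost with its other probe set (0.46, adjusted p = 0.0737). It rose by 3.24 ± 0.37 in the adult (12.98 ± 0.16 against 9.75 ± 0.38, adjusted p = 1.03e-04). Marveld3 and Ildr1 did not pass the filter.

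Among 8 tested immunoglobulin-like adhesion genes 4 were higher and 4 lower in embryonic fragments. Esam, an endothelial relative of the JAM proteins, was higher by 6.88 ± 0.17 and Pecam1, a marker of endothelial contacts, at least 39.6-fold (9.31 ± 0.27, rest of brain under 4). Cxadr, the coxsackie and adenovirus receptor, fell by 5.65 and its relative Clmp fell by 4.35. Between the ages 2 were higher and 3 lower. Jam3 rose by 0.85 ± 0.23 (adjusted p = 0.0117) and Pecam1 by 0.71 ± 0.23 (adjusted p = 0.0288), the latter lost without embryonic fragments replicate 2 (adjusted p = 0.0986) or 3 (0.0556), without the filter (0.0611) and with the fragments fitted alone (0.0816). Without adult fragments replicate 3 it was 0.43 (adjusted p = 0.0427). The nectins Nectin2 and Nectin3 fell by 2.97 and 2.29. Nectin2 fell from 9.97 ± 0.21, with adult arrays spread from 5.65 to 8.02 (SD 1.22). With 1 array left out its difference ran from -3.48 to -2.29 and stayed called. Nectin3 had the identical value of 9.46 on all 3 embryonic arrays (SD 0), so no spread of replicates was measured there.

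Of 13 tested scaffold and polarity genes 4 were higher and 6 lower in embryonic fragments. Magi3, a scaffold of the ZO-1 class, was higher by 1.93 ± 0.16 and Mpp5 (Pals1) by 1.13 ± 0.16. The polarity kinase Prkcz fell by 4.63, to 4.33 ± 0.0035 in embryonic fragments, just above background, so that the size leans on values near background. Pard6b was at least 7.63-fold lower, under 4 on every fragment array. Between the ages 3 were higher and 5 lower. Patj, a partner of Pals1, rose by 2.77 ± 0.20 from 4.05 ± 0.09 (below background on 1 embryonic array), or by 0.98 with another probe set (adjusted p = 0.00209). Prkcz rose by 1.65 ± 0.24 from that level near background, and its other probe set differed by 0.0063 (adjusted p = 0.987). Pard6a and Magi1 fell by 1.09 and 0.98.

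The adherens junction, which lies next to the tight junction, had 5 of 7 genes higher and 1 lower in embryonic fragments. Cdh5, the cadherin of endothelium, was higher by 6.83 ± 0.19, or by 3.04 with another probe set (adjusted p = 7.95e-04), and Vcl, vinculin, by 3.04 ± 0.14. Cdh2, N-cadherin, fell by 0.94 (adjusted p = 0.00355), and its other probe set differed by -0.04 (adjusted p = 0.941). Between the ages 2 were higher and 4 lower. Cdh2 fell by 2.64 (adjusted p = 1.21e-05) (-4.83 with another probe set), and Ctnnd1, p120 catenin, fell by 1.07. Cdh2 was highest in rest of brain (13.57 ± 0.09), and the part of carried neural tissue in its fall was not tested. Ctnna1 and Ctnnb1, the alpha and beta catenins, were called higher by 0.32 and 0.29. These calls were lost without embryonic fragments replicate 2 (adjusted p = 0.0916 and 0.0566), for Ctnnb1 without replicate 1 (0.0532), and for Ctnna1 without embryonic fragments replicate 3 (0.0794) or adult fragments replicate 1 (0.0782) or 2 (0.0527). Another probe set of Ctnnb1 had -0.23 (adjusted p = 0.281) and one of Ctnna1 had 0.11 (adjusted p = 0.435). With arrays centred on the endothelial markers both calls were lost (adjusted p = 0.124 for Ctnna1 and 0.179 for Ctnnb1).

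Of 12 signalling genes linked to junctions 8 were higher and 0 lower in embryonic fragments. Heg1, a receptor of endothelial junctions, was higher by 5.37 ± 0.28 (9.49 ± 0.61 against 4.12 ± 0.20, rest of brain below background on 1 array), and Amotl1, an angiomotin, by 1.98 ± 0.13. In adult against embryonic fragments 4 were higher and 1 was lower. Rapgef2, an activator of the GTPase Rap1, rose by 1.24 ± 0.13 and Amotl1 by 0.87 ± 0.13, the latter not with another probe set (0.016, adjusted p = 0.940). Ccm2 was called lower at -0.40 (adjusted p = 0.0498), a call lost in 15 recomputations (adjusted p = 0.0501 to 0.177). Among these was each omission of embryonic fragments replicate 1 or 2, rest of brain replicate 2 or 3, or any 1 adult array. Another probe set of Ccm2 had -0.73 (adjusted p = 0.00374).

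For each of the 8 genes the 3 genes most alike were taken by the root mean square difference over the 9 arrays after removing each gene's own mean. The distance is a description of 3 group levels with their spread and has no test. Cldn5 was nearest to Mecom, a transcription factor (0.23), Tdrp (0.34) and Rasgrp3, an activator of Ras (0.35). Ocln was nearest to Itpr3, a calcium channel of the endoplasmic reticulum (0.24), Tns2 (0.26) and Adcy4, an adenylyl cyclase (0.28). Lsr had Vwa1, a matrix protein (0.27), Nos3, the endothelial nitric oxide synthase (0.32), and Cd93 (0.33). Marveld2 had Sh3tc2 (0.25), Slc22a8, an organic anion transporter (0.26), and Def6 (0.30). These partners of the latter pair had lower levels in adult than in embryonic fragments as well, which the measure of likeness fixes. Tjp1 was nearest to Tacc1 (0.11), Hsd17b11 (0.12) and Sypl (0.12), and Jam2 to Afap1l2 (0.18), Zbtb4 (0.23) and Plaat3 (0.25). F11r was nearest to Slc46a3 (0.24), Slco2b1, another organic anion transporter (0.32), and Klhl6 (0.33). Cgnl1 had Trim5 (0.17), Abcg2, an efflux pump of the barrier (0.20), and Ctsh, a cathepsin (0.20).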

How the data were processed

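The 9 arrays were grouped by the titles of the samples, and no pair of arrays was identical (0 pairs). Each array has a deposited log2 value per probe set. For making them the authors used GCRMA (version 2.6.0) and R (version 2.4.1), as the submitters' processing notes list. That the scale is log2 was read from the range of the values. No sample column was left unused (0). Scanner files and slides were not analysed here, so other background corrections and a block for the slide were not run. With 3 arrays a group, precision is limited by their number.

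The platform annotation names 1 gene for 34958 of 45101 probe sets. Their Entrez numbers, set against RefSeq genes of GRCm38.p6, found 34754 probe sets and changed 0 symbols. All tests come from limma (version 3.58.1, R version 4.3.3, functions lmFit and eBayes, all 9 arrays in 1 fit, total degrees of freedom 8.43), with p-values adjusted over the 12009 genes that reached 4 on at least 3 arrays. An "at least" fold sets a group mean against 4 where the other group was under 4 on all 3 arrays. The fit was tested on simulated data.

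The members and lists were chosen with earlier results of these data known. Named genes were the 9 members and, from each other junction list and comparison of fragments, the 2 called genes with the largest difference in each direction, plus for each member the 3 nearest genes. Genes of the 6 other junction lists not found by symbol were looked up among synonyms.

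Embryonic fragments and rest of brain of the same number deviated together from their group means across genes (r = 0.19, 0.20 and 0.22 for replicates 1, 2 and 3). Other combinations of these arrays had r of -0.21 to -0.02. The labels do not say that equal numbers are pairs. Adult and embryonic fragments of the same number had r of 0.03, -0.08 and 0.21. Adult fragments replicate 2 had 0.21 with embryonic fragments replicate 1 and 0.20 with rest of brain replicate 1. A single r of this size thus does not identify pairs, though among the embryonic arrays only equal numbers deviated together. Whether these are pairs is not known, and the main fit used no block for the number.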

Additional observations from a re-analysis of the deposited data

How the results depend on the processing

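In all 20 recomputations of the embryonic comparison and all 19 of adult fragments against rest of brain, each taking 1 probe set a gene, every tested one of the 8 genes was called higher. Probe set by probe set, Jam2 was not called by 2 of 5 in the embryo (0.81 and 0.02) and by 1 in adult fragments against rest of brain. The alternatives were quantile normalization once more, median centring, cyclic loess, no filter, a floor of 4, an offset of 16, no probe sets marked as shared (7 genes left), the second-brightest probe set (6 left), the 2 groups alone, array weights and each array left out (8 of 8 called each time), plus the replicate block in the embryonic comparison. A gene with 1 probe set kept it in the second-brightest setting, so only Ocln, Jam2 and Cgnl1 were read by another one there. Between the ages the block and centring on the endothelial markers were run as well. Between the ages 3 to 6 genes were called, and 3 to 5 with an array left out. Over all genes and alternatives the counts were 6148 to 8686 (embryonic comparison), 5350 to 6983 (ages) and 7121 to 9296. The replicate block was run with only the 2 groups compared. In the embryonic comparison it changed no call of the 8 genes. Cldn1 was not called with it (adjusted p = 0.0709), nor with the 2 groups alone (0.0832). Between the ages, where same numbers did not all deviate together, the block left 4 calls, without Tjp1 and with Lsr. Cldn1 (adjusted p = 0.0895), Pecam1 (0.0822), Ctnna1 (0.0569), Ctnnb1 (0.0693) and Ccm2 (0.0606) were not called with it. Without the block, the 2 groups alone also lost Tjp1 (0.0502), Pecam1 (0.0816) and Ccm2 (0.0574) and gained Lsr (0.00792). With an array left out, the age difference of Cldn5 ran from -0.013 to 0.054, below 0 without embryonic fragments replicate 2 (-0.0056) or adult fragments replicate 3 (-0.013), and that of F11r from -0.42 to 0.057, above 0 without adult fragments replicate 1, none of them called. Other values that crossed 0 were 1 probe set of Jam2 (-1.23 between the ages and -0.42 for adult fragments against rest of brain, a setting chosen after seeing the data) and the second-brightest probe set of Ctnnb1 (-0.23). For the 8 genes 477 recomputed differences kept direction and call, 16 kept the direction and lost the call, 15 gained one and 5 crossed 0, of which the 2 of Jam2 lost their call too. Of 336 recomputed distances between like genes, 7 moved by more than the spread between replicates. Apart from the settings whose construction shows it (other probe sets, fewer arrays), the cause was not tested. Genes under 4 on every array, such as Cgn, cannot be compared at all.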
